A study of Bos taurus with 96 samples.

Results

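The 5 genes of the S100 family described here are S100A8 (ENSBTAG00000012640), S100A9 (ENSBTAG00000006505), S100A12 (ENSBTAG00000012638), S100A4 (ENSBTAG00000019203) and S100A13 (ENSBTAG00000021378). They were taken by identifier, as the S100 genes that the study named for the liver of early-lactation cows, from the 24616 genes in the count files. S100 proteins are small calcium-binding proteins of the EF-hand type that work inside cells and, once released, as extracellular signals. S100A8, S100A9 and S100A12 are the calgranulins, which are abundant in neutrophils and monocytes, bind zinc and other metals and act on receptors such as TLR4 and AGER. S100A8 and S100A9 together form calprotectin. S100A4 binds non-muscle myosin and is known from fibroblasts, leukocytes and other motile cells, and S100A13 takes part in the export of FGF1 and IL1A, which lack a signal peptide.

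Liver and semitendinosus muscle were biopsied in 16 Holstein cows, of which 8 (Fert+) had breeding values for high and 8 (Fert-) for low fertility, in late pregnancy (LP), on about the day after calving (EL) and in mid lactation (ML). Every cow gave both tissues at all 3 time-points, which made 96 libraries of polyA RNA. The genotypes are groups of cows chosen on estimated breeding values for calving interval and not on a known allele, they were a mixture of first and second parity animals run as a single herd, and no cow was bred again during the lactation sampled. The text gives each cow by the number in its label. The files hold read counts, of which liver libraries had between 14966847 and 26358063 and muscle libraries between 15279337 and 22018740.

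Levels are given as CPM, read counts per 1000000 counts of the library after TMM scaling within each tissue, and as log2(CPM + 1) where a difference within a cow is meant. CPM takes no account of gene length, so levels were compared for the same gene and not between genes. Depending on the library, 3 counts, the limit that a count of 0 allows for counting error, amount to 0.099 to 0.24 CPM. Marker genes went with the labels. The summed CPM of 5 hepatocyte genes had medians from 110227 to 131328 in liver, and that of 7 skeletal muscle genes was at most 0.424 CPM in liver. In muscle the hepatocyte sum reached 36.3 CPM at EL and 149.7 at ML. In muscle the same muscle genes had a median sum of 184489 CPM at LP, 55358 at EL and 209267 at ML. In 13 libraries, called set B here, at least 11 of 19 genes had 50 counts or more. In each of the other 83 libraries (set A) at most 3 of these genes did. The 19 genes were picked for a median count of at most 2 in each tissue and 50 or more in single libraries. The labels do not mention this difference and its source was not tested. The edgeR fits between time-points and between genotypes at a time-point, and Pearson's r, were also made within set A. The permutation tests and the tests of genotype by time-point and of tissue by time-point were not. In muscle, set B held Fert- libraries only.

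In the cow genome S100A8, S100A12 and S100A9 stand next to each other in that order, S100A4 lies between S100A3 and S100A5, and S100A13 between S100A1 and S100A14, all on the same chromosome. This order is that of the ARS-UCD2.0 assembly, whereas the files were counted on UMD3.1, so no positions are given.

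In liver, each calgranulin was higher at EL than at LP in 9 to 11 of 16 cows, and far higher in 3 of them. S100A8 was at 0.262, 0.568 and 2.86 CPM (lowest, median and highest of 16 cows) at LP, at 0.339, 0.981 and 53.2 CPM at EL, and at 0.178, 0.641 and 1.66 CPM at ML. S100A9 was at 0.566, 1.15 and 5.39 CPM at LP, at 0.532, 1.68 and 81.8 CPM at EL, and at 0.392, 0.957 and 2.85 CPM at ML. S100A12, which signals through AGER, was at 1.17, 2.86 and 11.2 CPM at LP, at 1.45, 3.74 and 149 CPM at EL, and at 1.66, 3.74 and 8.32 CPM at ML. The ranges of the time-points overlapped for all 3 genes, and the medians moved far less than the highest values.

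Cows with 10 CPM or more of S100A8 in liver at EL were set apart, a limit chosen after their values were seen. They were cows 164 and 982 of the Fert- group and cow 3847 of the Fert+ group. Cow 164 had 53.2 CPM of S100A8, 81.8 of S100A9 and 149 of S100A12. Cow 3847 had 17.1, 38.3 and 46.7 CPM of the same genes, and cow 982 had 15.3, 35.0 and 46.4 CPM. In the other 13 cows S100A8 reached at most 3.08 CPM, S100A9 5.49 and S100A12 12.8, so that each calgranulin had the same 3 cows above a gap. At LP and ML these cows lay within the range of the others, except that cow 3847 was lowest for S100A9 at ML (0.392 CPM). The 3 libraries held 79.6% of all 10295 calgranulin counts in liver at EL. Cow 3847 belongs to set B at EL and the other two do not.

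**Figure D1:**
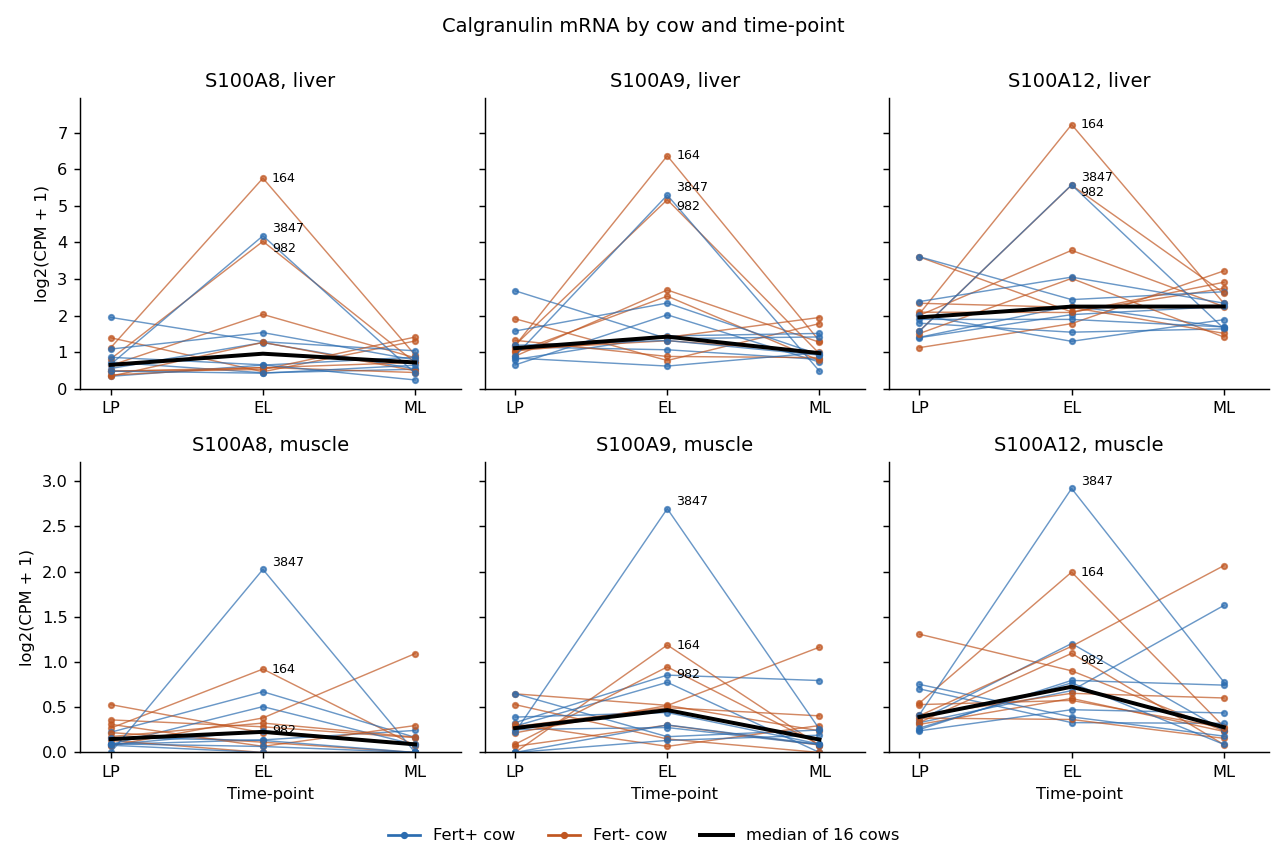
Expression of S100A8, S100A9 and S100A12 as log2(CPM + 1) on the vertical axes against time-point (LP, EL, ML), in liver (upper row) and muscle (lower row). Each thin line is a cow (blue Fert+, orange Fert-), the black line is the median of 16 cows, and cows 164, 982 and 3847, which stand above the other 13 in liver at EL, are named.

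A test within cows, with cow as a block in edgeR's quasi-likelihood model and Benjamini-Hochberg adjustment over 13815 genes, called none of the 5 members between EL and LP in liver, where 2.4% of all genes passed. The unadjusted p was 0.00555 for S100A8, 0.00459 for S100A9 and 0.0163 for S100A12, and 2927 genes had one under 0.05. The log2 change was 1.62 for S100A8 (standard error 0.55, adjusted p 0.0914), 1.71 for S100A9 (standard error 0.56, adjusted p 0.0858) and 1.26 for S100A12 (standard error 0.50, adjusted p 0.143). Without the block for cow, S100A8, S100A9 and S100A12 passed with log2 changes of 2.72, 2.80 and 2.11 (edgeR, adjusted p 0.0132, 0.0107 and 0.0204), beside 3.24% of all genes. DESeq2 with the block called S100A8 (log2 change 1.47, adjusted p 0.0328) and S100A9 (1.63, adjusted p 0.0156), beside 4.44% of all genes. The log2 changes were 1.17, 1.30 and 0.89 without cow 164, and S100A8 and S100A9 passed without cow 426. An exact sign-flip permutation test on log2(CPM + 1) over the 16 cows, two-sided, gave p = 0.0504 for S100A8, p = 0.0378 for S100A9 and p = 0.0638 for S100A12, not adjusted for the 30 such tests made, in which the smallest possible p is 3.05e-05. S100A8 and S100A9 were higher at EL in 11 of 16 cows each and S100A12 in 9. Among the 13 cows other than 164, 982 and 3847, the counts were 8, 8 and 6, with median differences of 0.10, 0.24 and -0.00 on the log2 scale. Set A alone gave log2 changes of 1.34, 1.35 and 0.93 with none called.

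From EL to ML, the fitted levels of S100A8 and S100A9 fell in liver, most steeply in cows 164, 982 and 3847. The log2 change was -1.60 for S100A8 (standard error 0.55, edgeR adjusted p 0.0192) and -1.89 for S100A9 (standard error 0.56, adjusted p 0.00809), and S100A12, at -1.14 (standard error 0.49), did not pass with an adjusted p of 0.0598. It passed when cow 426, 829, 996 or 3434 was left out (lowest edgeR adjusted p 0.0223). With S100A4, which is described below, 3 of the 5 members passed, where 41.6% of all genes did. S100A9 was lower at ML in 11 of 16 cows (exact sign-flip permutation p = 0.0171), and S100A8 in 10 (exact p = 0.0537). Among the 13 cows other than 164, 982 and 3847, S100A8 was lower in 7 and S100A9 in 8, with median log2 differences of -0.14 and -0.26. In cows 164, 982 and 3847 the differences were -4.84, -3.31 and -3.76 for S100A8 and -5.07, -4.21 and -4.82 for S100A9. The call of S100A8 was lost without cow 164, 982 or 3847, whichever was left out (-1.14 without cow 164), and also without set B (log2 change -1.51, edgeR adjusted p 0.0669), while S100A9 kept its call (-1.70, adjusted p 0.0456). Between ML and LP the log2 differences of the calgranulins were 0.02 for S100A8, -0.18 for S100A9 and 0.12 for S100A12, and none passed.

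In the 3 cows set apart, S100A12 took a smaller share of the calgranulin reads than in most others. S100A12 made up 52.4% of the calgranulin counts in cow 164 at EL (95% Wilson interval 50.98% to 53.8%), 47.99% in cow 982 (45.3% to 50.7%) and 45.7% in cow 3847 (43.6% to 47.8%). S100A8 made up 18.7%, 15.8% and 16.8% in these cows, and S100A9 28.8%, 36.2% and 37.5%. Over the 16 liver libraries at EL the median share was 57.3% for S100A12 (range 45.7% to 75.3%), 13.6% for S100A8 (8.18% to 19.3%) and 30.8% for S100A9 (16.1% to 37.5%). These intervals cover counting error only, and the shares are of counts, with no correction for gene length.

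In muscle, calgranulin transcripts were scarce and were highest at EL. S100A8 was at 0, 0.108 and 0.443 CPM at LP, at 0, 0.171 and 3.07 CPM at EL, and at 0, 0.0641 and 1.13 CPM at ML, with no count in 1, 2 and 6 of 16 libraries. S100A9 was at 0, 0.205 and 0.571 CPM at LP, at 0.0480, 0.384 and 5.47 CPM at EL, and at 0, 0.104 and 1.24 CPM at ML. S100A12 was at 0.180, 0.313 and 1.48 CPM at LP, at 0.257, 0.656 and 6.56 CPM at EL, and at 0.0625, 0.214 and 3.18 CPM at ML. Cow 3847 was highest at EL for all 3 genes, as it was among the highest in liver, and cow 829 was highest for all 3 at ML. Many of these values rest on fewer than 10 counts.

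S100A9 and S100A12 rose from LP to EL in muscle and fell again to ML. The log2 change from LP to EL was 1.39 for S100A9 (standard error 0.50, edgeR adjusted p 0.0186) and 1.22 for S100A12 (standard error 0.43, adjusted p 0.0156). From EL to ML it was -1.42 for S100A9 (standard error 0.50, adjusted p 0.0141) and -1.04 for S100A12 (standard error 0.42, adjusted p 0.0322). S100A8 was removed by the filter on low counts, so that 4 of 5 members were tested, and without that filter it had log2 changes of 1.02 and -1.28 (edgeR adjusted p 0.152 and 0.0617), the second of which DESeq2 called (-1.40, adjusted p 0.0375). S100A4 passed too, which made 3 of 4 members called in each comparison, where 57.4% of all genes passed between LP and EL and 63% between EL and ML. Exact sign-flip permutation p values for the rise were 0.0475 for S100A9 and 0.0132 for S100A12, each higher in 12 of 16 cows. Those for the fall were 0.0381 for S100A9, lower in 12 cows, and 0.0561 for S100A12, lower in 14.

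The size of these changes in muscle rested in part on cow 3847, without which the rise was 0.94 for S100A9 and 0.91 for S100A12 on the log2 scale and neither passed. S100A9 also lost its call for the rise without cow 164, and for the fall without cow 3847 (-0.998). S100A12 lost its call for the fall without cow 164, 756, 982, 3434 or 3847, at -0.78 without the last. Within set A the rise was 1.09 for S100A9 and 1.05 for S100A12 (edgeR adjusted p 0.0791 and 0.0594), and the fall was -1.18 and -0.79 (adjusted p 0.0537 and 0.136). Set B held too few libraries for values of its own. Neither calgranulin differed between ML and LP in muscle, where 0 of 4 members and 8.98% of all genes passed and their log2 differences were -0.04 and 0.18.

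Markers of myeloid cells could be checked only in part, since gene symbols were known for 2161 of the 24616 identifiers. Of 16 neutrophil genes, LTF, BPI and PGLYRP1 were matched. Their summed level in liver ranged from 6.30 to 36.1 CPM at LP, from 8.48 to 121 at EL and from 11.3 to 168 at ML, and the highest cow at EL was 419, not 164, 982 or 3847, which had 50.3, 74.1 and 26.5 CPM. LTF, lactoferrin of neutrophil secondary granules and of secretory epithelia, rose in liver from EL to ML by 0.68 on the log2 scale (edgeR adjusted p 0.0121) while S100A8 and S100A9 fell. BPI, the other neutrophil gene tested there, did not pass, and the 2 genes had a median log2 change of 0.254. BPI, a bactericidal granule protein, was highest at EL in cows 164 (2.25 CPM) and 982 (1.37 CPM), and cow 3847 ranked 6 of 16 with 0.701 CPM. PGLYRP1, a granule peptidoglycan-binding protein, had no count in 10 of 16 libraries at EL, and was at 4.18 CPM in cow 982, 0.888 in cow 3847 and 0.0607 in cow 164. The 6 cathelicidin genes, which encode antimicrobial peptides of neutrophil granules, summed to 29.3 CPM in cow 982, 0.607 in cow 164 and 0.140 in cow 3847. The PGLYRP1 value of cow 164 lies under the level of 3 counts, and the cathelicidin sums of cows 164 and 3847 were under 1 CPM.

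Of 10 monocyte and macrophage genes, C1QA, C1QB, C1QC, MARCO and VSIG4 were matched, with sums from 423 to 1167 CPM in liver at LP, from 411 to 1281 at EL and from 700 to 1435 at ML. At EL cow 982 ranked 2 of 16 for this sum, cow 164 ranked 11 and cow 3847 ranked 16. From EL to ML, C1QA, C1QB and C1QC, the subunits of complement C1q, rose in liver by 0.61, 0.63 and 0.55 on the log2 scale (edgeR adjusted p 0.000326, 0.000457 and 0.000621). In muscle the neutrophil sum ranged from 0.112 to 1.03 CPM at LP, from 0.423 to 1.95 at EL and from 0.0644 to 1.31 at ML, and LTF rose to EL by 0.89 (edgeR adjusted p 0.00881) and fell to ML by 0.88 (adjusted p 0.00881). The monocyte and macrophage sum in muscle at EL was highest in cow 164 (47.9 CPM) and next in cow 3847 (23.0 CPM), against a median of 10.5. Cow 982 ranked 8 of 16 for it with 10.9 CPM. For the neutrophil sum in muscle at EL, cows 164, 982 and 3847 ranked 6, 3 and 5. Erythroid transcripts stayed at or below 20.7 CPM in both tissues. In biopsies of whole tissue, fewer cells of a type and less RNA per cell cannot be told apart, and the part of these cell types in the calgranulin changes was not tested.

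S100A4 had another time course, with its highest liver levels at ML and a dip in muscle at EL. In liver it was at 1.47, 2.57 and 4.06 CPM at LP, at 1.26, 2.32 and 8.57 CPM at EL, and at 2.64, 3.81 and 7.47 CPM at ML. In muscle it was at 9.22, 12.3 and 29.1 CPM at LP, at 3.21, 8.37 and 20.5 CPM at EL, and at 8.01, 14.7 and 25.9 CPM at ML. Every muscle library lay above every liver library at LP and at ML, but not at EL, where the ranges overlapped. The tissues were scaled separately and this difference in level was not tested.

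S100A4 rose in liver from EL to ML by 0.67 on the log2 scale (standard error 0.19, edgeR adjusted p 0.00556), and 14 of 16 cows were higher at ML (exact sign-flip permutation p = 0.00839). The exceptions were cows 164 and 982, which had 8.57 and 8.35 CPM at EL, where no other cow was above 3.09. Compared with LP, liver S100A4 was higher at ML by 0.72 (standard error 0.19, edgeR adjusted p 0.0100) and in 15 of 16 cows (exact p = 0.000275). It was the only member called between ML and LP in liver, where 15.2% of all genes passed. LP and EL could not be told apart, with a log2 change of 0.05 (standard error 0.19, edgeR adjusted p 0.912), 8 cows higher and 8 lower. Each of the changes to ML kept its call without any 1 of the 16 cows and within set A (0.62 against EL and 0.72 against LP, edgeR adjusted p 0.0451 and 0.0488).

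In muscle S100A4 fell from LP to EL by 0.65 on the log2 scale (standard error 0.17, edgeR adjusted p 0.00171), in 13 of 16 cows (exact sign-flip permutation p = 0.00223). It rose from EL to ML by 0.74 (standard error 0.17, edgeR adjusted p 0.000357), in 14 of 16 cows (exact p = 0.000977), and its ML and LP levels differed by 0.09 (adjusted p 0.794). These calls held without any 1 cow and within set A (-0.55 and 0.78, edgeR adjusted p 0.00400 and 9.54e-05), but not when libraries were scaled by total counts alone. The median log2 change of all muscle genes then moved to 0.373 from LP to EL and to -0.404 from EL to ML, with 67.8% and 71.1% of all genes called, and S100A4 had changes of -0.28 (adjusted p 0.202) and 0.31 (adjusted p 0.145). Scaling shifts all genes by about the same amount, so a change relative to that median stays nearly the same by construction. It therefore cannot decide between the scalings.

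**Figure D2:**
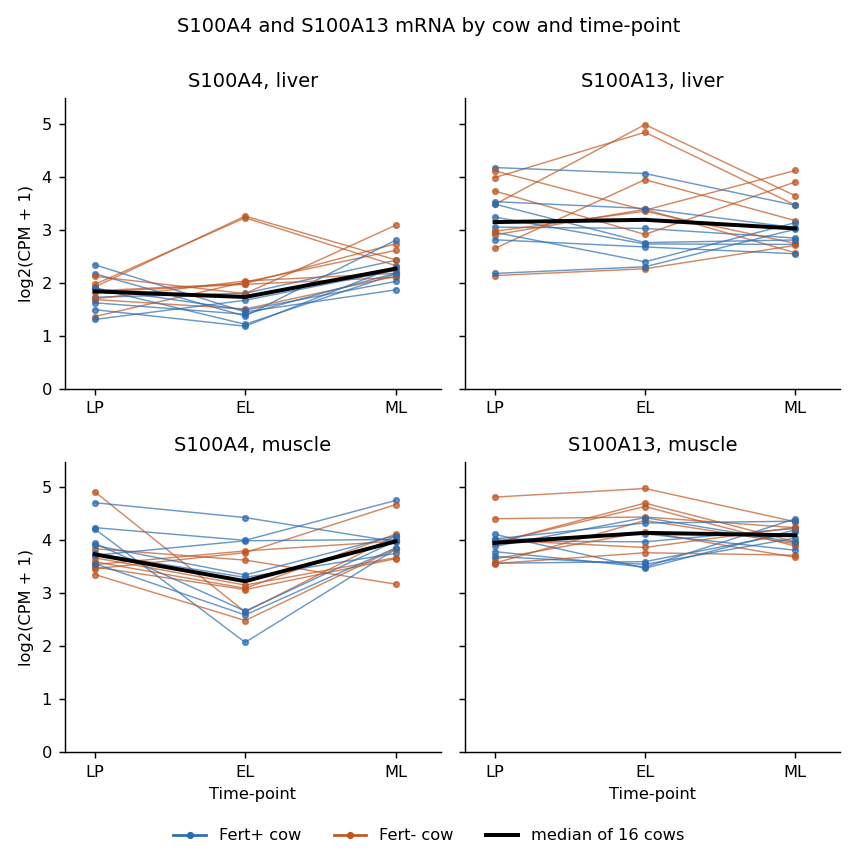
Expression of S100A4 and S100A13 as log2(CPM + 1) on the vertical axes against time-point (LP, EL, ML), in liver (upper row) and muscle (lower row). Each thin line is a cow (blue Fert+, orange Fert-) and the black line is the median of 16 cows, which for S100A4 is highest at ML in liver and lowest at EL in muscle.

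The fibroblast genes matched were COL1A1, DCN and LUM, which encode a collagen chain and proteoglycans of connective tissue, 3 of 6 on the list. All 3 fell in muscle from LP to EL (by 1.74, 0.66 and 0.95 on the log2 scale) and rose from EL to ML (by 1.40, 0.48 and 1.13), as S100A4 did. In liver all 3 rose from EL to ML, by 0.90, 0.51 and 0.60, with the largest edgeR adjusted p at 0.0241. Their summed level in muscle ranged from 167 to 410 CPM at LP, from 60.0 to 263 at EL and from 176 to 331 at ML. Whether S100A4 follows the amount of connective tissue in a biopsy was not tested.

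S100A13 showed no called change between time-points. In liver it was at 3.39, 7.86 and 17.1 CPM at LP, at 3.80, 8.16 and 30.7 CPM at EL, and at 4.84, 7.13 and 16.4 CPM at ML. In muscle it was at 10.8, 14.4 and 27.1 CPM at LP, at 10.1, 16.6 and 30.4 CPM at EL, and at 11.8, 16.1 and 20.1 CPM at ML. The ranges overlapped throughout, and the highest liver values at EL were again those of cows 982 (30.7 CPM) and 164 (27.6 CPM), whereas cow 3847 had 3.92 CPM. The log2 changes lay between -0.20 and 0.22. From LP to EL in muscle it had a log2 change of 0.22 (standard error 0.11, edgeR adjusted p 0.0793), with 11 of 16 cows higher (exact sign-flip permutation p = 0.0914). With total counts in place of TMM this became 0.60 (adjusted p 0.000138), against the median gene's 0.373, and the change from EL to ML became -0.49 (adjusted p 0.00134), against -0.404.

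**Figure D3:**
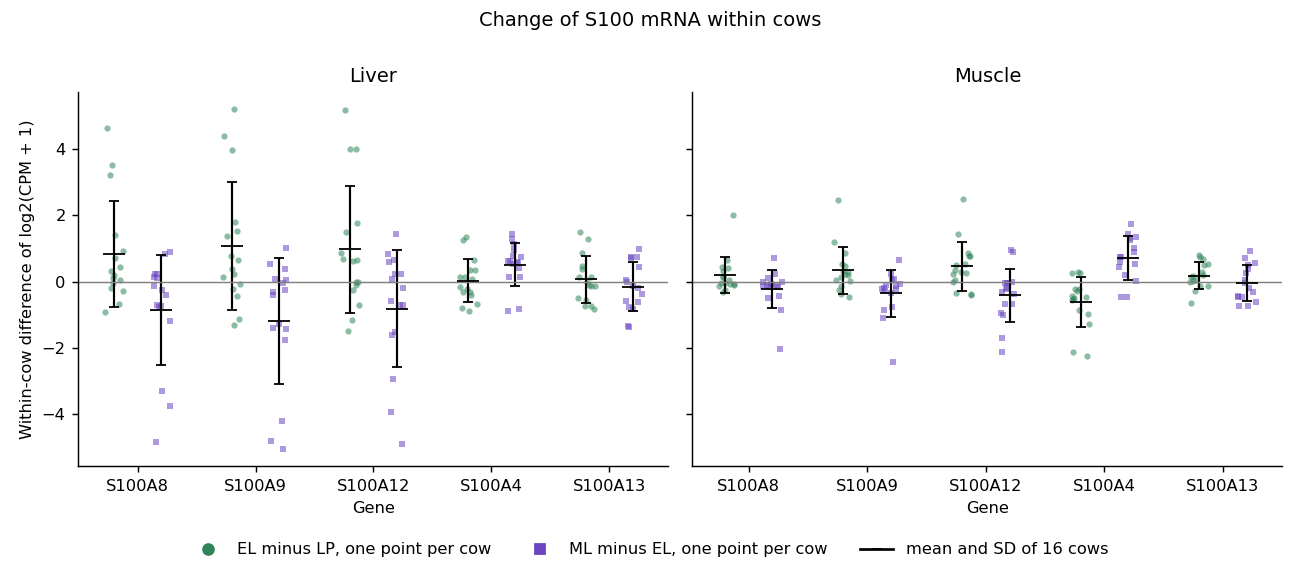
Differences within cows in log2(CPM + 1) for the 5 members, in liver (left) and muscle (right), from LP to EL (green circles) and from EL to ML (purple squares). Each point is a cow and the bars are the mean and SD of 16 cows; for S100A4, 14 of 16 cows lie above 0 from EL to ML in both tissues.

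Whether the tissues differed in their time course was tested over all 96 libraries. The change of S100A4 from LP to EL was higher in liver than in muscle by 0.67 on the log2 scale (standard error 0.26, edgeR adjusted p 0.0478), the only call among the members, where 28.9% of all genes passed. Neither S100A4 nor another member passed for EL to ML, where 38.7% of all genes did, or for LP to ML, where 9.28% did and S100A4 had a difference of 0.64 (adjusted p 0.0992). When libraries were scaled by total counts, the median gene shifted by -0.325 for LP to EL and by 0.136 for LP to ML, with 41.4% and 10.7% of all genes called. The difference of S100A4 for LP to EL was then 0.34 and did not pass (edgeR adjusted p 0.329), and that for LP to ML was 0.77 and passed (adjusted p 0.0446). No calgranulin was called, with differences of 0.48, 0.26 and -0.03 from LP to EL for S100A8, S100A9 and S100A12 and standard errors of 0.92, 0.93 and 0.50, which leave room for large differences either way.

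The genotypes were compared at each time-point with 8 cows against 8. The study singled out these 5 genes on the liver EL comparison of the same samples. For this reason neither their direction nor their p values there are independent evidence. At LP the log2 differences in liver (Fert+ minus Fert-) ran from -0.12 for S100A13 to 0.38 for S100A8 (edgeR adjusted p from 0.932 to 0.998). At EL all 5 members had lower fitted levels in Fert+ cows, by 1.67 on the log2 scale for S100A8 (standard error 1.11), 1.36 for S100A9 (1.06), 1.68 for S100A12 (0.95), 1.24 for S100A4 (0.31) and 0.95 for S100A13 (0.40). None passed edgeR's quasi-likelihood test over 13047 genes, with adjusted p from 0.379 for S100A4 to 0.587 for S100A9. The unadjusted p was 0.000892 for S100A4 and 0.0292 for S100A13 and above 0.05 for the calgranulins. That test called 0% of all genes in liver at LP, 0% at EL and 0% at ML, although unadjusted p values under 0.05 were had by 842, 1530 and 1640 genes. At EL an edgeR exact test with a common dispersion for all genes called all 5 members, beside 2.31% of all genes. Adjusted p in that test ran from 4.61e-07 for S100A12 to 0.0243 for S100A13. The study chose these genes in this comparison with edgeR's common dispersion, so these calls largely repeat that choice. DESeq2 called none of them (smallest adjusted p 0.0742, for S100A4).

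For the calgranulins, the difference between genotypes in liver at EL rested on single cows. S100A8 was at 0.339, 0.981 and 17.1 CPM in Fert+ cows and at 0.375, 0.948 and 53.2 CPM in Fert- cows. S100A9 was at 0.532, 1.65 and 38.3 CPM in Fert+ and at 0.703, 3.21 and 81.8 CPM in Fert- cows. S100A12 was at 1.45, 3.44 and 46.7 CPM in Fert+ and at 2.43, 5.37 and 149 CPM in Fert- cows. The groups overlapped almost completely, and the medians of S100A8 were nearly equal. Without Fert- cow 164 the log2 difference of S100A8 was -0.05, that of S100A9 -0.14 and that of S100A12 -0.34, and without Fert+ cow 3847 they were -3.30, -3.08 and -3.01. Within set A, which lacks cow 3847, they were -3.30, -3.11 and -3.01 (edgeR adjusted p 0.493, 0.491 and 0.491). An exact permutation test of 8 against 8 cows on log2(CPM + 1), two-sided, gave p = 0.495 for S100A8, p = 0.425 for S100A9 and p = 0.266 for S100A12, where 30 such tests were made and the smallest possible p is 0.000155.

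S100A4 separated the genotypes in liver at EL more evenly. It was at 1.26, 1.69 and 2.48 CPM in Fert+ cows (mean 1.75 ± 0.41, SD, n = 8) and at 1.83, 2.99 and 8.57 CPM in Fert- cows (4.15 ± 2.69, SD, n = 8). All 8 Fert- cows lay above the Fert+ median and 6 lay above the highest Fert+ cow. The exact permutation p was 0.000777, not adjusted for the 30 tests, and the edgeR adjusted p of 0.379 rests on all 13047 genes. Since the study chose S100A4 on this comparison in the same cows, neither the permutation p nor the separation is independent evidence. The log2 difference stayed between -1.35 and -1.0 when any 1 cow was left out, and was -1.33 within set A. Some markers of other cell types were also lower in Fert+ livers at EL, none past the threshold: COL1A1 by 0.86, DCN by 0.32 and LUM by 0.83 on the log2 scale for fibroblasts, VWF by 0.75 for endothelium and LTF by 1.59 for neutrophils (edgeR adjusted p from 0.379 to 0.426). The other neutrophil gene tested, BPI, was at -0.32 (edgeR adjusted p 0.793). Of the monocyte and macrophage genes, C1QA, C1QB, C1QC and VSIG4 were at -0.37, -0.30, -0.20 and -0.21. MARCO went the other way, at 0.30 (edgeR adjusted p of these genes from 0.462 to 0.734). The fibroblast sum ranged from 75.3 to 123 CPM in Fert+ and from 87.1 to 222 in Fert- cows, with cow 982 highest, and the neutrophil sum from 8.48 to 28.7 and from 9.75 to 121 CPM. Their part in the S100A4 difference was not tested. At LP the genotypes had 2.51 and 2.57 CPM as medians and at ML 3.61 and 4.2 CPM, Fert+ first, with exact permutation p of 0.981 and 0.227.

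**Figure D4:**
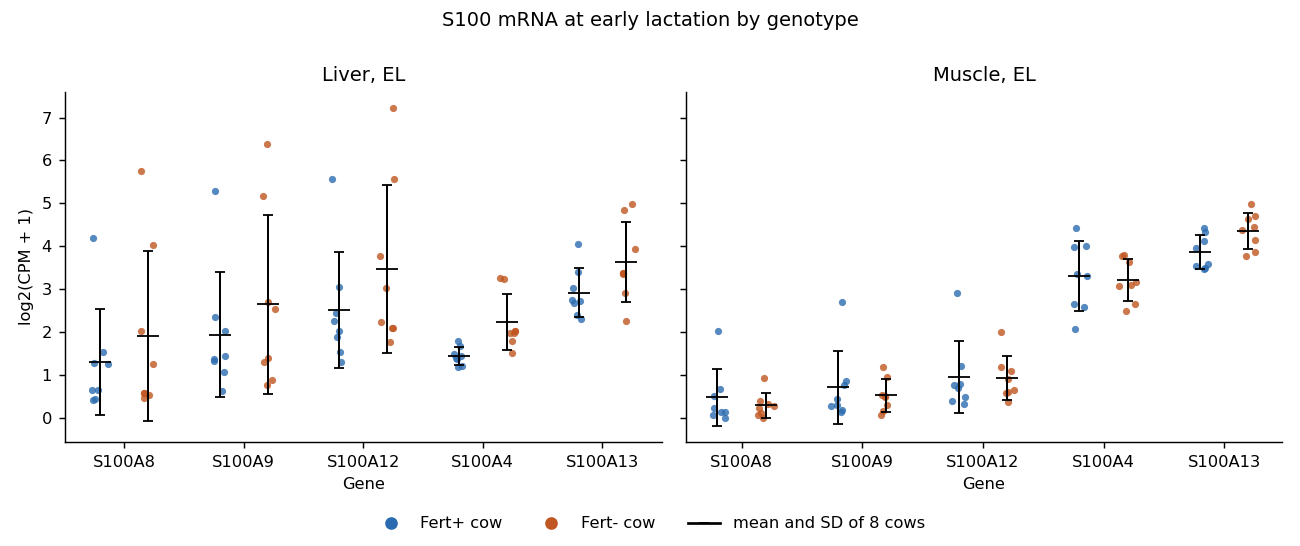
Levels of the 5 members at EL as log2(CPM + 1) on the vertical axis, for liver (left) and muscle (right), in 8 Fert+ (blue) and 8 Fert- (orange) cows. Each point is a cow and the bars are the mean and SD of 8 cows; in liver 6 of 8 Fert- cows lie above every Fert+ cow for S100A4, while for the calgranulins the groups overlap and cows 164 and 982 (Fert-) and 3847 (Fert+) are the high points.

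S100A13 in liver at EL was at 3.92, 5.70 and 15.7 CPM in Fert+ cows and at 3.80, 9.38 and 30.7 CPM in Fert- cows, with 7 of 8 Fert- cows above the Fert+ median (exact permutation p = 0.0884) and a log2 difference of -0.83 within set A. In muscle at EL it was at 10.1, 12.9 and 20.5 CPM in Fert+ and at 12.58, 20.2 and 30.4 CPM in Fert- cows. There the log2 difference was -0.54 (standard error 0.20, edgeR adjusted p 0.313), 7 of 8 Fert- cows lay above the Fert+ median and the exact permutation p was 0.0300. Within set A, which drops Fert- cows 164 and 419, the difference was -0.40 (edgeR adjusted p 0.481). Of the 8 skeletal muscle identifiers, 7 had positive differences in the same comparison and 1 of the MYH7 identifiers was at -0.42, with ACTA1, TNNT3, MYH2, MYL1 and CKM higher in Fert+ cows by 1.59, 1.15, 1.08, 0.82 and 0.62 on the log2 scale, none past the threshold (edgeR adjusted p from 0.213 to 0.348). Their list summed to between 39982 and 181447 CPM in Fert+ cows and between 15419 and 89652 in Fert- cows. Of the fibroblast genes, LUM differed by -1.03, DCN by -0.23 and COL1A1 by 0.03. The part of tissue make-up in the S100A13 difference was not tested. In muscle S100A4 and S100A13 were tested at each time-point and S100A12 at EL, the others being too low. None passed in edgeR, beside 0% of all genes at LP, 0.00831% at EL and 0% at ML, while 800, 1426 and 918 genes were under 0.05 before adjustment. Muscle S100A8 at LP gave an exact permutation p of 0.0112, on libraries with at most 6 counts. In liver at ML all 5 members had lower fitted levels in Fert+ cows, by 0.27 to 0.61 on the log2 scale, with edgeR adjusted p from 0.410 to 0.575.

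A different genotype effect between time-points needs its own test, which was an interaction of genotype and time-point with cow as a block. No member passed. In liver the background was 0% of all genes for EL against LP, 0% for ML against EL and 0% for ML against LP, while 1651, 1067 and 380 genes were under 0.05 before adjustment in edgeR. In muscle it was 0.0158%, 0% and 0%, with 1461, 1122 and 492 genes under 0.05 before adjustment. For S100A4 in liver the change from LP to EL was lower in Fert+ cows by 1.16 on the log2 scale (standard error 0.34, unadjusted p 0.00149, edgeR adjusted p 0.232). That test includes the liver EL values on which the study chose S100A4. In muscle the change of S100A13 from EL to ML was higher in Fert+ cows by 0.67 (standard error 0.19, unadjusted p 0.00102, edgeR adjusted p 0.199).

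The calgranulins varied together from cow to cow. Pearson and Spearman correlations of log2(CPM + 1) were computed over cows for the 10 pairs of members at each time-point in each tissue, which made 60 relations, of which 24 had a Benjamini-Hochberg adjusted permutation p under 0.05 for Pearson's r. The smallest p that the resampling can give is 1e-05. In liver at EL, where cows 164, 982 and 3847 form a separate cluster, they were computed over the other 13 cows. There r was 0.886 for S100A8 with S100A9, 0.912 for S100A8 with S100A12 and 0.903 for S100A9 with S100A12, rho was between 0.797 and 0.863, the adjusted permutation p was at most 0.0006 for r and 0.0140 for rho, and without the 2 cows farthest from the median of the first gene r was between 0.772 and 0.819. The calgranulins thus moved together in liver also among the cows with low levels.

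In liver at LP the 3 calgranulin pairs had r from 0.805 to 0.894 and rho from 0.521 to 0.671 (adjusted permutation p for r at most 0.00536, for rho at most 0.135). Without the 2 farthest cows r was between 0.324 and 0.591, so these relations rested in large part on cows 430 and 426, which had 19.4 and 15.5 CPM of calgranulins summed against a median of 4.36. In liver at ML r was from 0.599 to 0.890 and without 2 cows from 0.429 to 0.749 (adjusted permutation p at most 0.0407 for r and 0.0755 for rho). In muscle at EL r was from 0.920 to 0.9499 and rho from 0.665 to 0.826, and without 2 cows r was from 0.467 to 0.741 (adjusted permutation p at most 0.00213 for r and 0.0316 for rho). In muscle at ML r was from 0.719 to 0.913 but rho from -0.03 to 0.458 (adjusted permutation p at most 0.0442 for r and at least 0.222 for rho), and without 2 cows r was from 0.278 to 0.371, so the relation rested on those cows. Cow 829, highest for each calgranulin, was left out of all 3 pairs, with cow 996 where S100A8 was the first gene and cow 33 where S100A9 was. In muscle at LP, where most values are under 10 counts, 1 of the 3 pairs passed, S100A9 with S100A12 (r 0.705, rho 0.608, adjusted permutation p 0.00536 for r and 0.0651 for rho, r 0.473 without 2 cows). Within set A the calgranulin pairs had r of 0.840, 0.828 and 0.879 in liver at EL over 11 cows. In liver at ML r within set A was lower than over all cows, at 0.815 for S100A8 with S100A9, 0.682 for S100A8 with S100A12 and 0.423 for S100A9 with S100A12 over 13 cows, against 0.890, 0.763 and 0.599.

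**Figure D5:**
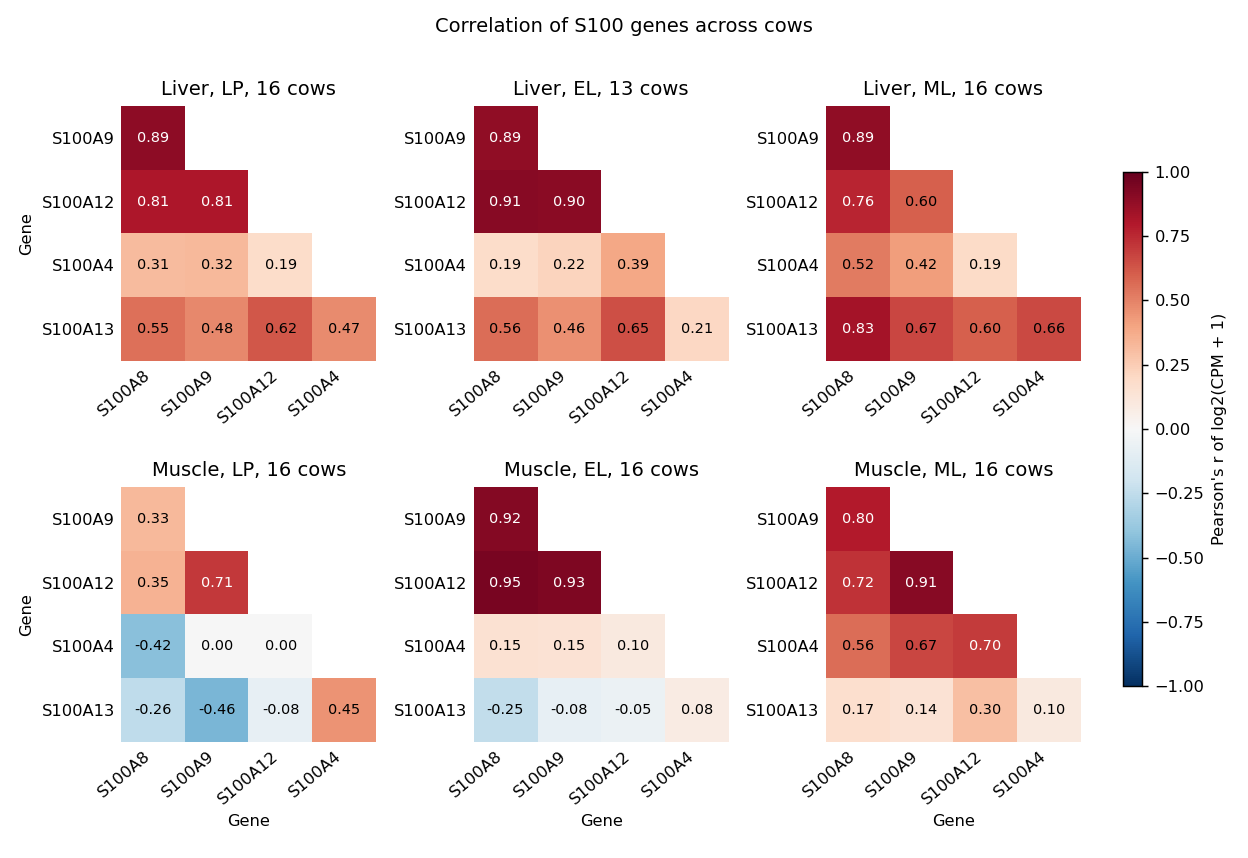
Pearson's r between the 5 members over cows at each time-point, on log2(CPM + 1), for liver (upper row) and muscle (lower row). The colour and the value in a cell give r over 16 cows, or over 13 cows in liver at EL; for the 3 calgranulin pairs r is from 0.886 to 0.912 in liver at EL and from 0.920 to 0.9499 in muscle at EL.

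S100A4 did not follow the calgranulins in liver, where r was between 0.186 and 0.516 over the 3 time-points and no adjusted permutation p passed. S100A13 did at ML, with r of 0.832 for S100A8, 0.666 for S100A9 and 0.600 for S100A12 (rho 0.738, 0.456 and 0.5265, adjusted permutation p for r 0.000825, 0.0205 and 0.0405, for rho 0.0140, 0.222 and 0.135). Without the 2 farthest cows r was 0.624, 0.261 and 0.850, so that the relation with S100A9 rested on those cows. S100A13 also followed S100A12 at LP (r 0.622, rho 0.653, adjusted permutation p 0.0271 for r and 0.0393 for rho, r 0.503 without 2 cows) and at EL (r 0.648, rho 0.643, adjusted permutation p 0.0418 for r and 0.0755 for rho, r 0.473 without 2 cows). S100A4 and S100A13 correlated in liver at ML (r 0.657, rho 0.715, adjusted permutation p 0.0208 for r and 0.0173 for rho, r 0.532 without 2 cows and 0.712 within set A). In muscle the relations of S100A4 with S100A9 and S100A12 at ML (r 0.669 and 0.700, rho 0.208 and 0.197, adjusted permutation p for r 0.0262 and 0.0205, for rho 0.713 and 0.728) went to -0.15 and -0.06 without 2 cows and rested on those cows.

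The level of a member in liver and in muscle of the same cow was compared in 15 relations, of which 2 passed, both at LP. S100A12 had r 0.798 (rho 0.582, adjusted permutation p 0.0135 for r and 0.305 for rho, r 0.521 without 2 cows, 0.804 within set A), and S100A9 had r 0.654 (rho 0.445, adjusted permutation p 0.0334 and 0.431, r 0.173 without 2 cows, 0.687 within set A). The relation of S100A9 therefore rested on the 2 farthest cows. At EL, over the 13 cows that form no cluster in liver, r was between -0.19 and 0.17 for the 5 members. Among the 3 set apart in liver at EL, cow 3847 ranked first for the calgranulin sum in muscle at EL with 15.1 CPM, and cows 164 and 982 had 5.16 and 2.32 CPM, against a median of 1.22.

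Genes whose pattern was most like a member's were sought by Pearson's r of log2(CPM + 1) over the 48 libraries of a tissue. The search covered the genes kept in that tissue, with the members themselves left out of the ranking. It is given as a description, since libraries of a cow are not independent and 3 libraries weigh heavily. A name could be given only to genes that the study's tables pair with a symbol. In liver the first named gene for each calgranulin was CHI3L2, a chitinase-like protein (r 0.885 with S100A8, 0.889 with S100A9 and 0.870 with S100A12). FCNB, a ficolin of myeloid cells, was among the 3 nearest to S100A12 (r 0.829). In muscle PTX3, a pentraxin released in inflammation, was nearest to S100A8 (r 0.824) and among the 3 nearest to S100A9 (r 0.783) and S100A12 (r 0.707). Liver S100A4 was nearest to PIGR, the receptor that carries polymeric immunoglobulins across epithelia (r 0.806), and liver S100A13 was nearest to ORAI2, a calcium channel subunit (r 0.747), followed among named genes by CLDN4, a tight junction protein (r 0.715). In muscle the 3 nearest genes of S100A4 had no symbol. Its first named genes were COL1A1 (r 0.699), DCN (r 0.689) and LOXL1 (r 0.680), at ranks 15, 21 and 26. Muscle S100A13 was near TUBG2, a gamma tubulin (r 0.699), and TTC12 (r 0.690).

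Of 14 other S100 genes sought, S100A1 and S100A2 were matched. S100A1, a regulator of calcium handling in striated muscle, fell in muscle from LP to EL by 1.05 on the log2 scale and rose again by 1.05 to ML (edgeR adjusted p 2.42e-11 and 5.49e-12), and it rose in liver to ML by 0.97 over LP and by 0.53 over EL (adjusted p 0.000104 and 0.00498). S100A2, known from epithelial cells, passed in no comparison, but at EL its 3 highest liver values, 832, 487 and 165 CPM, were those of cows 3847, 164 and 982, against a median of 87.7. Of 8 receptor and signalling genes of the calgranulins, BSG and CD36 were matched. BSG, also called basigin or CD147, fell in muscle from LP to EL by 0.46 and rose to ML by 0.29 (edgeR adjusted p 0.000156 and 0.0105), and CD36, a fatty acid translocase that binds S100A8 with S100A9, rose by 0.22 and fell by 0.24 (adjusted p 0.0248 and 0.0125). Neither BSG nor CD36 passed in liver. The muscle changes of these genes, of S100A1 and of the marker genes are given after TMM scaling only. With total counts the median muscle gene moved by 0.373 from LP to EL and by -0.404 from EL to ML, more than some of these changes. No gene of the lists of S100 binding partners, myeloid transcription factors or T and B cells could be matched to an identifier.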

How the data were processed

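The authors deposited, for each of 96 libraries, read counts per gene without normalization, made per the labels with STAR and featureCounts on the UMD3.1 genome after base calling with CASAVA 1.8. Groups come from the labels. Another 96 columns in tables of the whole series, which carry no sample names, were not used. The 5 members and the gene lists were chosen with earlier results of these data known.

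Counts were tested with edgeR 4.0.16 under R 4.3.3 (quasi-likelihood, robust, TMM factors, filterByExpr, Benjamini-Hochberg adjustment over all genes, threshold 0.05), with cow as a block between time-points. The pairing comes from the same animals. Residuals of the same cow correlated above 0.1 in 39 of 48 liver and 42 of 48 muscle pairs. No 2 of 336 library pairs within a group agreed within sampling noise. Exact permutation tests and correlations (100000 resamples) used scipy 1.17.1 on log2(CPM + 1). The fits were tested on simulated data. Alternatives, not all of which were run for every test, were no block, RLE factors, no filter, no robust estimation, DESeq2 1.42.0, an exact test with common dispersion, leaving out each cow or set B, and, chosen after seeing the data, total counts. Symbols came from tables of the study that pair them with identifiers and cover part of the genes. Named genes are all members, up to 4 genes of each list and the 3 nearest genes; marker genes, and HP, AGP and SAA3 after seeing their values, were added.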

Additional observations from a re-analysis of the deposited data

Results flagged for a closer look

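Within a genotype, tissue and time-point, the highest cow stood apart from the other 7 by Dixon's criterion in 19 of 60 groups, where chance gives about 1 in 20, and the lowest cow in none. The criterion was applied to log2(CPM + 1), and the values below are CPM.

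For S100A8 these cows were 430 in liver at LP (2.86 CPM), 3847 in liver (17.1 CPM) and in muscle (3.07 CPM) at EL, 164 in muscle at EL (0.895 CPM) and 829 in muscle at ML (1.13 CPM). For S100A9 they were 430 and 426 in liver at LP (5.39 and 2.76 CPM), 3847 at EL in liver (38.3 CPM) and muscle (5.47 CPM), and 33 and 829 in muscle at ML (0.736 and 1.24 CPM). For S100A12 they were 430 in liver at LP (11.2 CPM), 426 in muscle at LP (1.48 CPM), 3847 at EL in liver (46.7 CPM) and muscle (6.56 CPM), and 33 and 829 in muscle at ML (2.08 and 3.18 CPM). For S100A4 they were 419 in muscle at LP (29.1 CPM) and 33 in muscle at ML (25.9 CPM). The same library of cow 419 had the highest fibroblast (410 CPM), monocyte and macrophage (24.8 CPM) and endothelial (104 CPM) marker sums of muscle at LP, against medians of 259, 8.75 and 65.2. That of cow 33 had the highest fibroblast (331 CPM) and hepatocyte (149.7 CPM) sums of muscle at ML, against medians of 212 and 10.7. The part of these markers in the S100A4 values was not tested. Cow 164 did not meet the criterion for the calgranulins in liver at EL, where cow 982 of the same genotype was also high. Of these libraries, that of cow 3847 in liver and those of cows 164 and 419 in muscle belong to set B.

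The change of S100A4 from LP to EL differed between liver and muscle by 0.67 on the log2 scale (edgeR adjusted p 0.0478), by the test of that difference. In that test 28.9% of all genes passed, and S100A4 did not pass when libraries were scaled by total counts.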

How the results depend on the processing

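Across the alternatives, 289 summary values (counts of called members and median correlations) stayed within their limits and 10 counts moved by over 1.5 times, and 527 fitted changes of single members kept their direction and their side of the threshold, 23 passed it anew, 21 lost it and 4 changed sign. Without the replicate block (unpaired), 3 members passed from LP to EL in liver in place of 0, and DESeq2 called 2. All genes passed at 3.24% and 4.44% in these fits, in place of 2.4%. Without set B, 1 member passed in muscle from LP to EL and 1 from EL to ML in place of 3. The exact test with common dispersion called 5 members between genotypes in liver at EL, beside 2.31% of all genes. It largely repeats the comparison on which the study chose them. With total counts, 0 members differed between tissues from LP to EL and 1 from LP to ML, beside 41.4% and 10.7% of all genes.

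Leaving out 1 cow at a time gave 0 to 2 calls from LP to EL in liver (2 without cow 426), 2 to 4 from EL to ML in liver, 1 to 4 from LP to EL and 1 to 3 from EL to ML in muscle (1 each without cow 3847). No share of all genes is given for the fits without a cow or without set B. Their counts of calls therefore cannot be set against other genes. In liver from LP to EL, S100A4 then ranged from -0.085 to 0.15 and S100A13 from -0.015 to 0.16, with the sign changing without cow 164, 419 or 982 for the first and 982 for the second. The causes were not tested. Depth limits the calgranulins in muscle, and symbols known for 2161 identifiers limit the marker lists.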

Other observations

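Acute-phase genes of the liver were looked at in the same cows after their calgranulin values were seen. HP, haptoglobin, had its 3 highest values at EL in cows 164, 3847 and 982, at 52926, 38950 and 35357 CPM against a median of 13292. AGP, alpha-1-acid glycoprotein, was highest in cows 982 and 164, at 52419 and 34667 CPM against a median of 6796, and cow 3847 had 4894 CPM. S100A4 and S100A13 were likewise highest in cows 164 and 982 and low in cow 3847. SAA3, a serum amyloid A gene, was at 977 CPM in cow 982, 313 in cow 3847 and 30.8 in cow 164, against a median of 24.2. ALB, albumin, was at 9897 CPM in cow 164 and 25728 in cow 3847, the lowest and the next lowest of 16, and at 42578 in cow 982, against a median of 56556. FGB, the beta chain of fibrinogen, was highest in cows 164 and 3847, at 112230 and 71306 CPM against a median of 37974. These are values of single cows and were not tested.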
